A study of Drosophila melanogaster with 312 samples.

Results

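Mitochondrial ribosomal proteins are encoded in the nucleus, made in the cytoplasm and imported into mitochondria, where they assemble with 2 rRNAs of the mitochondrial genome into the mitoribosome. This ribosome translates the few mRNAs of the mitochondrial genome, all of which encode subunits of the respiratory chain and the ATP synthase. Its small subunit decodes the mRNA and its large subunit forms the peptide bond. In Drosophila, loss of function of such proteins is known to cause growth delay and, for the S12 protein tko, bang sensitivity. Oogenesis is known for its large supply of mitochondria to the egg.

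The genes were chosen by their symbol, mRpL or mRpS followed by a number, in the deposited table of normalized counts. This gave 72 genes of 13212 in that table and of 17478 with raw counts. By the letter of the symbol, 46 were counted to the large and 26 to the small subunit. The place of each protein in the ribosome was not checked. They are spread over the genome, with 12 on 2L, 11 on 2R, 17 on 3L, 21 on 3R and 11 on X. tko and bonsai, which encode the S12 and S15 proteins, carry other symbols and are given only for comparison. All 72 genes passed the filter on low counts in each sex, and the lowest raw count of any of them in any library was 39.

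The data are 312 RNA-seq libraries from whole virgin Drosophila melanogaster. The flies descend from an outbred population made by crossing 10 lines of the Drosophila Genetic Reference Panel. The 6 populations were a pair bred from the shortest night sleepers (S1, S2), a pair bred from the longest (L1, L2) and a pair of controls bred at random (C1, C2). Both sexes of all 6 were taken at 13 generations, 0 and then 2 through 13, as 2 pools of 10 flies. All populations were reared under the same conditions, and the flies were frozen at the same time of day after their sleep had been recorded. The 2 pools came from the same bottle, so the populations are the independent units, and every value is a mean over all tissues of the fly. In such samples fewer cells of a type and less RNA per cell cannot be told apart.

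Depth ranged from 31539064 to 109389826 counts on genes, with a median of 41317004. All libraries of generation 11 had 54364791 counts or more, and those of generation 8 had 47856345 to 60095388. Libraries of the other generations had 52436755 or less. The mean log2 level of 22 ovary markers was 10.45 to 13.76 in females and 6.06 to 13.23 in males, and that of 20 testis markers was 2.52 to 7.48 in females and 9.54 to 12.19 in males. Of these markers, 20 of 22 and 19 of 20 differed by over 2-fold in the direction of their sex. Of the male libraries, 3 stood apart by ovary markers, L1 generation 8 pool 2 at 13.23, S2 generation 0 pool 2 at 11.86 and S2 generation 2 pool 1 at 9.22, against 8.04 or less in the other male libraries. The female library C2 generation 2 pool 1 stood at 7.48 for testis markers, against 4.75 or less in the other female libraries. All 4 were kept, and results that rest on them are also given without them.

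Mitochondrial ribosomal protein genes were higher in females. The difference was tested with edgeR's quasi-likelihood test between the sexes of the same populations and generations, on the sums of the 2 pools, and called at an adjusted p under 0.001. All 72 genes were called, where 97.9% of the 13896 genes tested were called, so being called says little by itself. At least 1.5-fold higher in females were 57 of 72, against 29.4% of all genes tested. None was at least 1.5-fold higher in males, against 56.3% of all genes tested. The median of the 72 genes was 1.18 on the log2 scale, which is 2.27-fold, while the median of all genes tested was -1.26. Genes entered this test when they passed the count filter in either sex. In males 13825 genes passed it, and in females 10107. The values for all genes tested thus lean towards males through genes that passed in males alone, whereas the 72 genes passed in both sexes. Shares over genes that passed in both sexes were not computed. A total of 43 genes were at least 2-fold higher in females. Compared within each of the 78 pairs of female and male samples of the same population and generation, 65 genes were higher in females in every pair. Shares of all genes for the 2-fold count and for the pairs were not computed.

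Scaling moved the 72 genes together with all other genes. With TMM factors in place of the authors' size factors, the median of all genes moved from -1.26 to -0.89 and that of the 72 genes from 1.18 to 1.55. The distance between both medians was 2.44 under either scaling. A change of scaling shifts the difference of every gene by nearly the same amount, so this distance could hardly change and is no separate check. With TMM factors 71 of the 72 genes were at least 1.5-fold higher in females, against 34.9% of all genes.

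**Figure D1:**
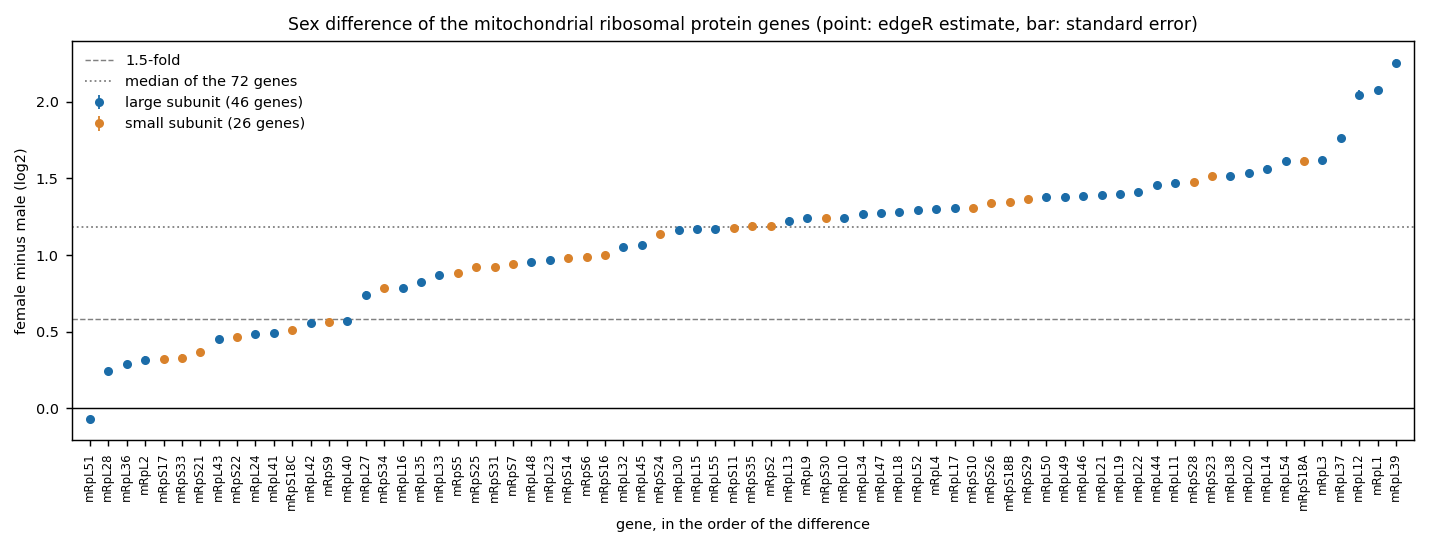
Female minus male difference on the log2 scale for each of the 72 genes, in ascending order, with the edgeR standard error as a bar that is mostly smaller than the point. 71 of 72 genes lie above 0, from 0.24 for mRpL28 to 2.25 for mRpL39, and mRpL51 lies at -0.07.

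Large-subunit genes held both ends of this range. mRpL39 (FBgn0036462; 3L, 14997981 to 14999666, minus strand), a protein found only in mitochondrial and not in bacterial ribosomes, had the largest difference. Its normalized counts had a lowest value of 1834, a median of 2889.5 and a highest of 4751 in females, and 353, 593 and 2078 in males. The groups overlapped only through the second L1 male pool of generation 8, and without the libraries that stood apart the highest male value was 757. The difference was 2.25 ± 0.03 (edgeR standard error, 78 sums per sex; adjusted p = 6.37e-123).

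mRpL1 (FBgn0037566; 3R, 8301440 to 8302770, plus strand) encodes a protein of the L1 stalk, where the used tRNA leaves the ribosome. It ranged from 2353 to 4617 in females, with a median of 3239, and from 561 to 2285 in males, with a median of 752. No male library reached the lowest female one, and the difference was 2.08 ± 0.02. mRpL12 (FBgn0011787; 3L, 8956791 to 8957584, plus strand) encodes the L7/L12 protein of the stalk that recruits translation factors. It ranged from 2859 to 6565 in females and from 633 to 3241 in males, or to 1332 without the libraries that stood apart, with a difference of 2.05 ± 0.03. mRpL37 and mRpL3, the latter a core protein of the peptidyl transferase region, followed with 1.76 ± 0.02 and 1.62 ± 0.02.

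At the other end, mRpL51 (FBgn0032053; 2L, 8516753 to 8517380, minus strand), another mitochondria-specific protein, was the only gene with a lower level in females. Its normalized counts ranged from 620 to 1418 in females, with a median of 826, and from 649 to 1211 in males, with a median of 868, so that the groups overlapped along nearly all of their range. The difference was -0.07 ± 0.02 (adjusted p = 3.98e-05), and females were higher in 24 of 78 pairs. The direction does not hold under all scalings, since TMM factors gave 0.30, and with total counts the difference of -0.0066 was not called (adjusted p = 0.689). It was also not called without S1 (adjusted p = 0.00338) or without the first pools (adjusted p = 0.00188). The next smallest differences were 0.24 ± 0.01 for mRpL28, 0.29 ± 0.02 for mRpL36, 0.32 ± 0.02 for mRpL2, which lies beside mRpL3 in the catalytic core, and 0.32 ± 0.02 for mRpS17. Females of these 4 genes were higher in 73 to 77 of 78 pairs, and the libraries of both sexes overlapped.

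**Figure D2:**
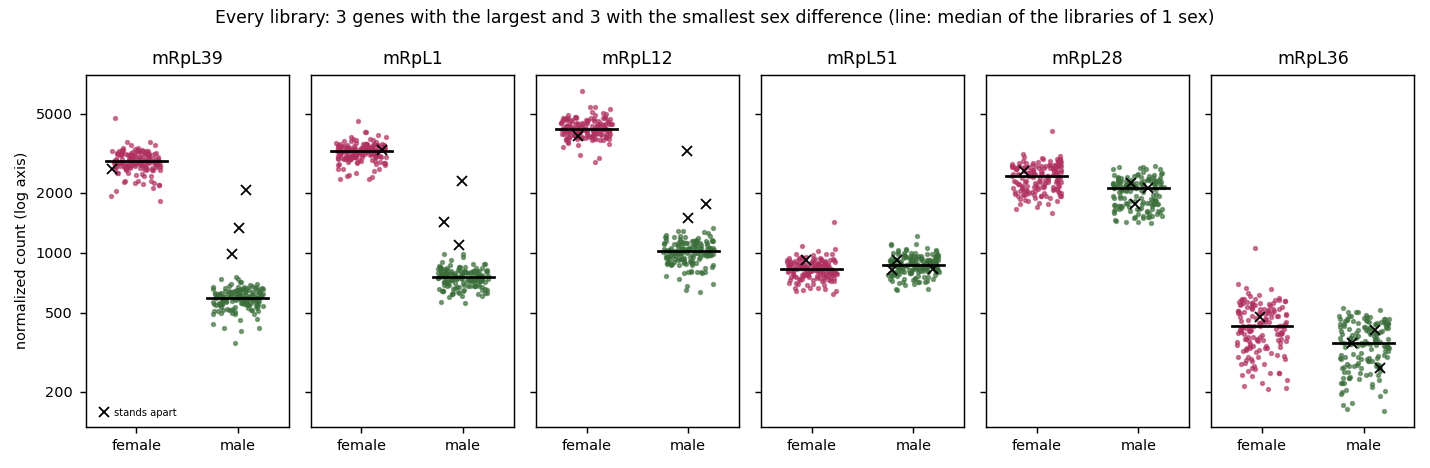
Normalized count of every library on a log axis, for the 3 genes with the largest and the 3 with the smallest female minus male difference, with the median of each sex as a line and the libraries that stood apart as crosses. The sexes are separate in mRpL1 and, but for 1 male cross each, in mRpL39 and mRpL12, while the points of mRpL51, mRpL28 and mRpL36 overlap.

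The sexes did not overlap in 8 genes, mRpL1, mRpL3, mRpL14, mRpL16, mRpL44, mRpS7, mRpS18A and mRpS18B, and in 40 genes without the 4 libraries that stood apart. The share of all genes without overlap was not computed, so these counts cannot be called high or low. The median difference was 1.26 for the genes named mRpL and 0.99 for those named mRpS, with ranges of -0.07 to 2.25 and 0.32 to 1.61. The groups rest on the letter of the symbol alone, and mRpS18A holds the upper end of the latter. By chromosome the medians lay between 1.07 on 2L and 1.27 on 2R, with 1.24 on X. The 3 paralogues of the bacterial S18 protein differed among themselves. mRpS18A stood at 1.61 ± 0.02, mRpS18B at 1.35 ± 0.02 and mRpS18C at 0.51 ± 0.02.

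Most other genes of mitochondrial translation were also higher in females. tko stood at 1.62 ± 0.02 and bonsai at 1.70 ± 0.02. Of 16 mitochondrial tRNA synthetase genes 12 were at least 1.5-fold higher in females, of 9 mitochondrial translation factor genes 6, and of 10 tested genes for replication and expression of the mitochondrial genome 10. At least 1.5-fold higher in males were 4, 2 and 0 of them. The median of the translation factors was 1.08 and that of the genes for replication and expression 1.69. Genes of the respiratory chain had lower female minus male medians. Of 92 tested nuclear genes of the chain 1 was at least 1.5-fold higher in females and 52 in males, close to the 56.3% of all genes, with a median of -0.63, and of 12 mRNAs of the mitochondrial genome 11 were higher in males, with a median of -1.16. The cytoplasmic ribosome had a median of 0.58, with 46 of 92 tested genes at least 1.5-fold higher in females and 7 in males. The lists differ in the number of genes and in their levels, and the differences between them were not tested.

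Per kilobase of exon, mRpL12 had the highest mean level of the 70 genes with an annotated length, with 5734 normalized counts per kb in females and 1393 in males. mRpS7, which binds the small-subunit rRNA, followed with 3555 and 1846, and mRpS18A with 3448 and 1124. The lowest were mRpL21 with 788 and 299, mRpS14 with 773 and 393, and mRpL34 with 1038 and 429. Across the 70 genes the sex difference and the exon length had a correlation of 0.22, as a description over genes that share all libraries.

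Levels swung from generation to generation, in part but not fully in step across the 6 populations. Generation was tested within each sex as a factor with 12 coefficients, with the 6 populations as replicates. Called were 71 of 72 genes in females, against 76.4% of 10107 genes tested, and 65 of 72 in males, against 72.5% of 13825. mRpS30 was not called in females (adjusted p = 0.00237). In males mRpL3, mRpL11, mRpL18, mRpS10, mRpS30, mRpS31 and mRpS35 were not called, with adjusted p from 0.00101 to 0.0212. The swings were mostly under 2-fold. The range of the 13 generation means had a median of 0.49 in females and 0.54 in males on the log2 scale, against 0.63 and 0.64 for all genes tested, and 9 genes in females and 6 in males ranged over more than 2-fold. The labels name no date of extraction or sequencing, so the generation and the handling of its samples cannot be told apart.

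The mean log2 level of the 72 genes in females was highest at generation 0, at 10.73 ± 0.16 (SD, n = 6 populations), and lowest at generation 11, at 10.34 ± 0.10. At generation 0, 63 of 72 genes stood above their own mean over generations, and at generations 10 and 11 13 and 18 did. Here and for males below, shares of all genes above their own mean are not given. Such counts are therefore not read as particular to the 72 genes. The first C1 pool of generation 0 had a mean of 11.29, against 10.58 in the second. Without it and the libraries that stood apart, the mean at generation 0 was 10.67, and 62 of 72 genes stood above their own mean. Of the 6 population means of generation 0, 5 lay between 10.60 and 10.93 and L1 lay at 10.50. The 6 means of generation 11 lay between 10.17 and 10.46, below those of generation 0. Among the 85 tested cytoplasmic ribosome genes 68 stood above their own mean at generation 0, and 7 and 20 at generations 10 and 11.

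In males the mean was highest at generation 8, at 9.62 ± 0.18, and lowest at generation 11, at 9.22 ± 0.08. The male libraries of these generations were deeper than those of any other, and generation 11 was deep in females too. Whether depth bears on these means was not tested. At generation 8, 71 of 72 genes stood above their own mean, or 66 of 72 without the libraries that stood apart, when the mean was 9.58. L1 and S1 stood highest at 9.92 and 9.76, and the other populations lay between 9.46 and 9.57. In L1 the second pool, with its female-like ovary markers, stood at 10.13 and the first at 9.70. Both S1 pools stood high, at 9.80 and 9.72, with ovary markers at 6.48 and 6.69, near the male median of 6.75. At generation 13, 13 of 72 genes were above their own mean in males and 42 of 72 in females. Among the 92 cytoplasmic ribosome genes tested in males, 87 stood above their own mean at generation 8.

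Generation held 57.3% of the sum of squares of the set mean in females and 59.7% in males, and population 10.3% and 2.1%, over 78 values per sex. The profiles of the sexes resembled each other. Over the 13 generations the correlation between female and male means of a gene had a median of 0.78, was over 0.5 in 66 genes and was below 0 in 1, mRpL18 at -0.03. These values describe pools of the same generations, which share their bottles and sampling.

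**Figure D3:**
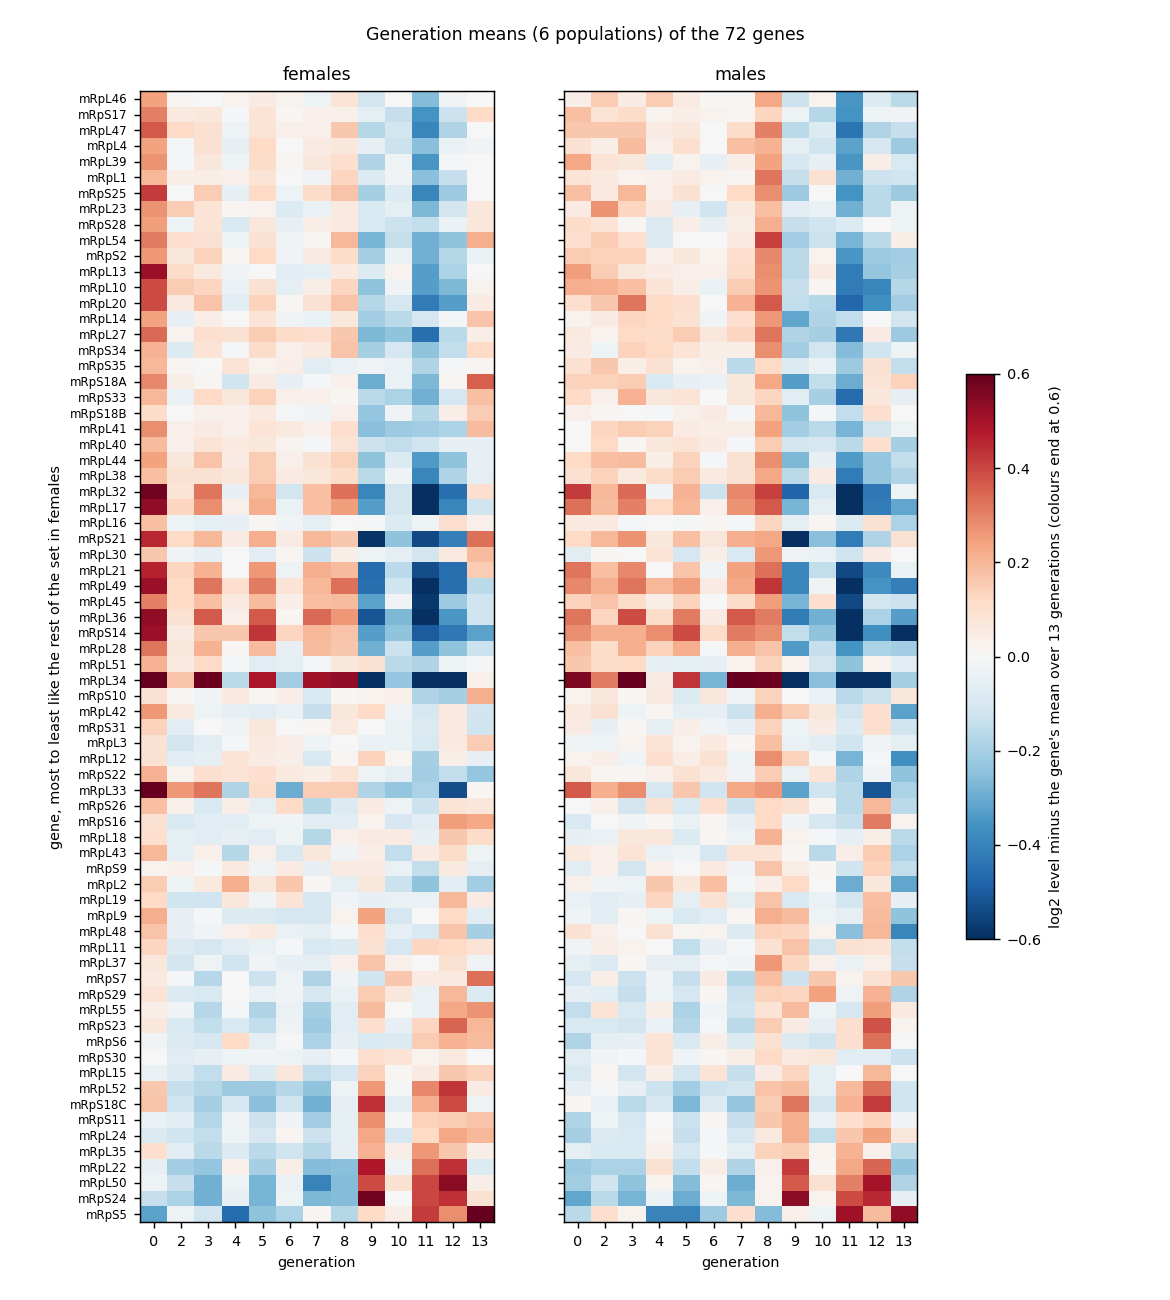
Log2 level of each gene at each generation, averaged over 6 populations and set against the gene's own mean over the 13 generations, for females on the left and males on the right (red above, blue below, colours end at 0.6). Genes are ordered from most to least like the rest of the set in females, and most upper rows are blue at generation 11 in both sexes, while the lowest rows are red there.

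The same 5 genes had the largest range in both sexes, all of the large subunit. mRpL34 (FBgn0083983; 2R, 16098948 to 16099337, plus strand), which encodes a short protein, ranged over 1.80 in females and 1.54 in males. Its mean normalized count in females was 586 ± 109 at generation 0 (SD, n = 6 populations), 280.0 ± 13.0 at generation 4, 446 ± 26.6 at generation 7, 181 ± 6.3 at generation 9, 164 ± 12.0 at generation 11 and 319 ± 16.1 at generation 13. In males it was 196 ± 42.1 at generation 0, 201 ± 20.7 at generation 7, 80.4 ± 10.0 at generation 9 and 69.8 ± 13.2 at generation 11. The populations at generation 7, from 403 to 473 in females and from 172 to 231 in males, did not overlap with those at generation 9, from 175 to 190 and from 66.4 to 97.0. The adjusted p was 1.44e-33 in females and 2.39e-26 in males.

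mRpL49 (range 1.33 in females and 1.23 in males), mRpL36 (1.29 and 1.14), mRpL32 (1.27 and 1.12) and mRpL17 (1.16 and 1.11) followed the same course. All were high at generations 0, 3, 5, 7 and 8 and low at 9, 11 and 12. Over the 78 population and generation means, centred on each population, their 10 pairwise correlations lay between 0.92 and 0.97 in females and between 0.87 and 0.96 in males. mRpL34 and mRpL36 have short exons, of 327 and 495 bases, and across 70 genes the range had a correlation with exon length of -0.33 in females and -0.30 in males. The smallest range was that of mRpS30, at 0.17 in females and 0.25 in males. Part of the range of any gene is sampling spread, which was not removed.

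Several genes departed from the set. Likeness was measured as the correlation of a gene with the mean of the other 71 over the same 78 centred means. Its median was 0.67 in females and 0.68 in males, and it was below 0 in 8 genes in females and in 4 in males. Of all 2556 pairs of genes, 75.4% had a correlation above 0 in females and 82.7% in males. The least like were mRpS5 (-0.32), mRpS24 (-0.32), mRpL50 (-0.28), mRpL22 (-0.28) and mRpL35 (-0.08) in females, and mRpS5 (-0.55), mRpS24 (-0.17), mRpL24 (-0.04), mRpL50 (-0.03) and mRpL22 (0.01) in males. They were chosen for low likeness, so these values are a description.

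mRpS24 (FBgn0039159; 3R, 24162829 to 24163545, minus strand), a small-subunit protein, was high where mRpL34 was low. Its mean normalized count in females was 1010 ± 27.9 at generation 3, 1840 ± 109 at generation 9 and 1680 ± 131 at generation 12. In males it was 461 (431 to 492 over the 6 populations), 815 ± 38.8 and 766 ± 72.8. The populations at generation 9, from 1720 to 2040 in females and from 744 to 853 in males, lay above all those at generation 3, which reached 1040 and 492. The adjusted p for generation was 8.91e-29 in females and 8.85e-17 in males.

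mRpL50 (FBgn0028648; 3L, 7243080 to 7243933, minus strand) rose from 1420 ± 79.1 at generation 7 to 2730 ± 320 at generation 12 in females, and from 579 ± 35.9 to 1010 ± 77.9 in males. mRpL22 (FBgn0030786; X, 16783933 to 16785092, plus strand), a protein that lines the exit tunnel, rose from 2050 ± 91.0 at generation 7 to 3410 ± 211 at generation 9 in females, and from 808 ± 39.4 to 1220 ± 44.6 in males. In each case the populations of both generations did not overlap in either sex. mRpS24, mRpL50 and mRpL22 had pairwise correlations of 0.93 to 0.96 in females and 0.89 to 0.92 in males. Against the 5 genes with the largest range, the 5 least like genes had correlations of -0.82 to -0.48 in females and -0.75 to -0.40 in males. Both groups were chosen on these same data, so negative values between them follow in part from the choice and are a description. Of the S18 paralogues, mRpS18C followed this course, with 544 ± 23.3 at generation 7 and 903 ± 79.6 at generation 9 in females, whereas mRpS18A was lowest at generation 9 in both sexes.

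mRpS5 (FBgn0044510, on 3L), which lies near the entry of the mRNA in bacteria, followed a course of its own. It stood at 2300 ± 297 at generation 4 and 4920 ± 545 at generation 13 in females, and at 1300 ± 93.5 and 2460 ± 154 in males, without overlap of populations. Its correlations with the other 4 least like genes were 0.37 to 0.54 in females and 0.08 to 0.37 in males. The later annotation used here has no entry for its identifier, so no coordinates or length are given.

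**Figure D4:**
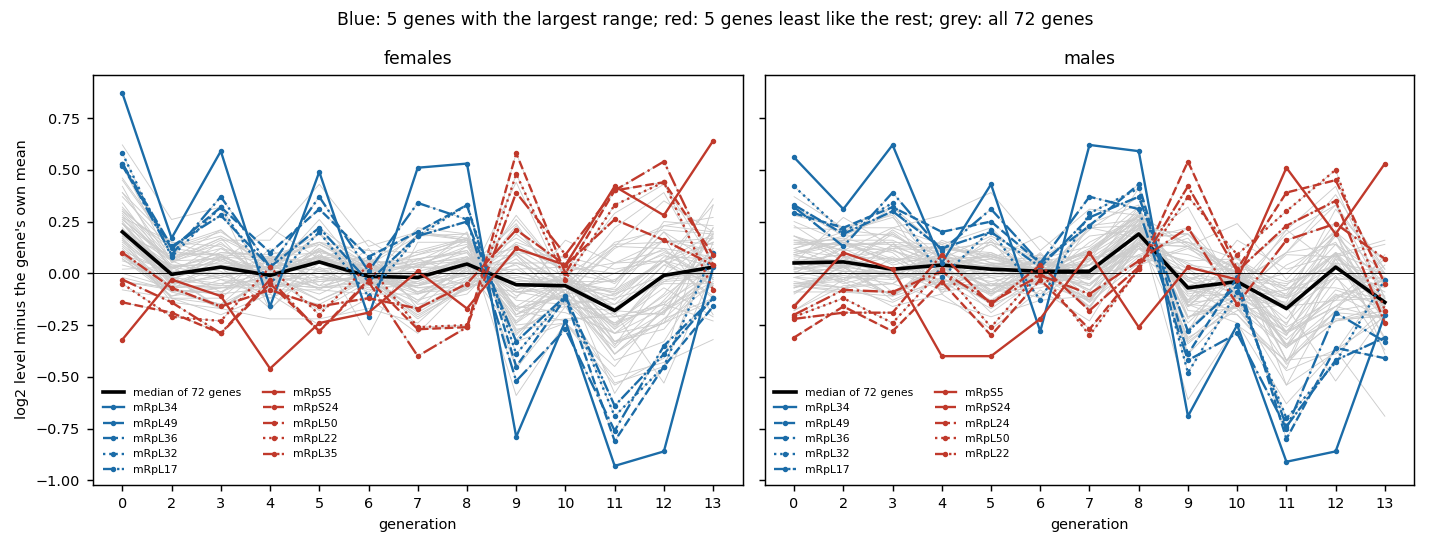
Log2 level minus the gene's own mean by generation, in females and males, for all 72 genes in grey, their median in black, the 5 genes with the largest range in blue and the 5 least like the rest in red. In both sexes mRpL34 is lowest at generation 11, at -0.93 in females and -0.91 in males, while mRpS24 is highest at generation 9, at 0.58 and 0.54.

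The mitochondrial rRNAs, with which these proteins assemble, swung much more. mt:lrRNA, the large-subunit rRNA, stood at 1660000 ± 122000 at generation 3 and 284000 ± 99200 at generation 4 in females, and at 2540000 ± 407000 and 271000 ± 99300 in males. mt:srRNA, the small-subunit rRNA, ranged over 4.26 in females and 5.60 in males on the log2 scale. Libraries were made from poly-A RNA, and how much of an rRNA is captured in this way was not measured. At generation 11 the set was lowest and mt:lrRNA stood at 0.16 above its own mean in females and 0.40 in males, while mt:srRNA stood at -0.12 and 0.00. The nuclear respiratory chain had 18 of 72 tested genes above their own mean at generation 11 in females and 18 of 92 in males, and the cytoplasmic ribosome 20 of 85 and 20 of 92.

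Whether the course over generations differed between the sexes was tested by the interaction of sex and generation. It was called in 7 of 72 genes, against 14.4% of all 13896 genes tested, with mRpL35, mRpS21, mRpL20 and mRpL41 at the smallest adjusted p (4.87e-05 to 9.47e-05). In mRpL20 the female minus male difference was 1.83 at generation 0, 1.33 at generation 8 and 1.80 at generation 13. In mRpS21 it was 0.69, 0.29 and 0.60, with its lowest value of 0.14 at generation 12. The mean difference over the 72 genes was 1.25 ± 0.20 at generation 0, 0.95 ± 0.19 at generation 8 and 1.26 ± 0.08 at generation 13 (SD, n = 6 populations), and 1.03 to 1.13 at the other generations. At generation 0 C1 stood at 1.64 and the other 5 populations at 1.06 to 1.25. The count was 12 without the libraries that stood apart, 0 without either pool number, 0 without generation 13 and 1 without either control population. Its relation to all genes turned with the setting, since without the libraries that stood apart 10.0% of all genes tested were called. Without the first pools the share of all genes was 2.93%, without the second 13.3% and without generation 13 13.0%. The count was 2 without L2 or S1, 3 without S2 or generation 0, and 4 without generation 2 or generation 7.

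Few of these genes had a called trend that set the selected populations apart from the controls. The 4 slopes of the selected populations over generations, added to a slope shared with the controls, were tested together in each sex, as in the linear model of the study. In females 2 of 72 genes were called, mRpL14 and mRpS30, against 10.0% of 10107 genes tested, and in males 1, mRpS35, against 5.87% of 13825. At an unadjusted p under 0.05 there were 29 genes in females and 6 in males. At an adjusted p under 0.05 there were 27 and 2. Shares of all genes at either threshold were not computed, so these counts are not set against all genes. With generation as a factor in place of the shared slope, 27 of 72 genes were called in females, against 39.8% of all genes tested, and 6 in males, against 10.5%. With populations rather than libraries as replicates, limma on 6 slopes called 0 of all genes tested in either sex, so it says nothing of the 72. In females the added slopes were above 0 in 57 genes for S1, 69 for S2, 70 for L1 and 70 for L2, with medians of 0.008 to 0.021 per generation on the log2 scale, whereas the shared slope was above 0 in 16. Medians of the added slopes of all genes tested lay between -0.001 and 0.009. In males the added slopes were above 0 in 47, 15, 39 and 21 genes.

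The added slopes are set against the shared slope. Each selected population has an added slope of its own, so the shared slope is set by C1 and C2 alone. All 4 added slopes of a gene are measured from it, and their counts above 0 are not 4 separate observations. The first C1 female pool of generation 0, with its mean of 11.29, is among the libraries behind the shared slope of females. The mean over the 72 genes in control females was 10.63 for C1 and 10.59 for C2 over generations 0 to 4, and 10.36 and 10.49 over generations 10 to 13. S1 went from 10.53 to 10.37, S2 from 10.59 to 10.52, L1 from 10.53 to 10.43 and L2 stayed at 10.56. In the late generations the populations numbered 1 stood at 10.36 to 10.43 in females and those numbered 2 at 10.49 to 10.56. In males the 6 populations lay at 9.41 to 9.53 in the early and 9.25 to 9.37 in the late generations.

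**Figure D5:**
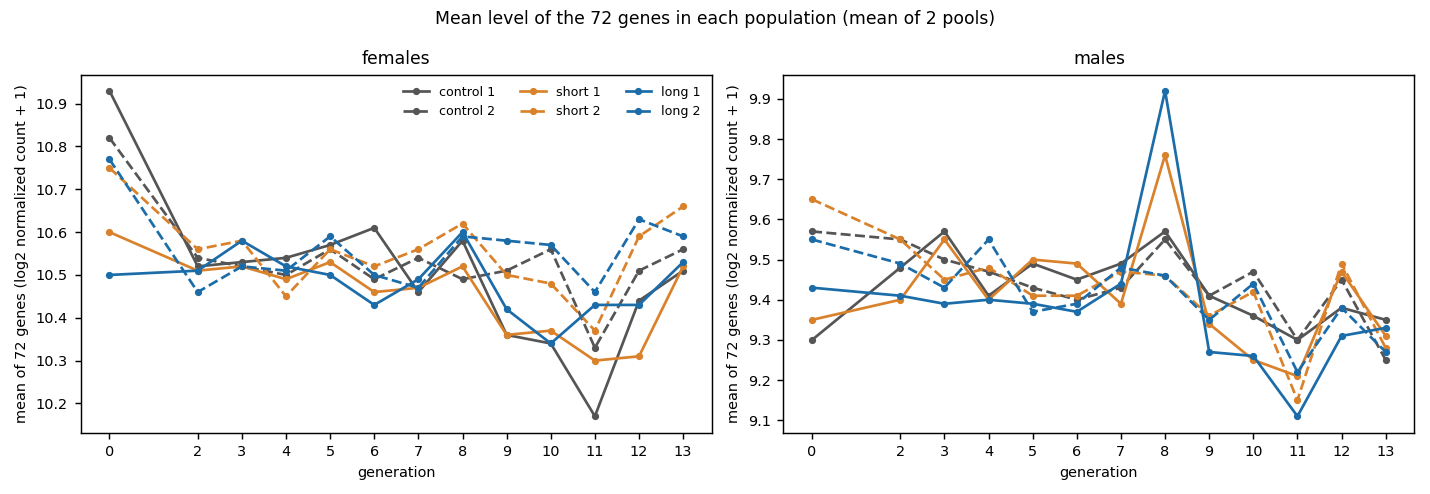
Mean log2 normalized count of the 72 genes by generation in each population (mean of 2 pools), for females and males on separate axes. Among females C1 spans the widest range, from 10.93 at generation 0 to 10.17 at generation 11, and among males L1, from 9.92 at generation 8 to 9.11 at generation 11.

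mRpL14 (FBgn0040389; X, 2343997 to 2344649, minus strand), a large-subunit protein at the face between the subunits, had added slopes in females of 0.01 in S1, 0.04 in S2, 0.01 in L1 and 0.06 in L2, beside a shared slope of -0.03 (adjusted p = 0.00014). Its mean normalized count went from 1320 ± 182 in generations 0 to 4 to 1620 ± 166 in generations 10 to 13 in L2 (SD, n = 8 libraries), whereas the C1 libraries lay at 1220 to 2630 and at 942 to 1380. The ranges of early and late libraries overlapped in both. The call was lost without L2 (adjusted p = 0.0626), without generation 12 (0.00452) and without either pool number (0.0920 and 0.0648). With a slope for each population number as a replicate block it was also lost (0.0120), as was that of mRpS30 (0.106), and mRpL40 was called instead.

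mRpS30 (FBgn0030692; X, 15786047 to 15788288, plus strand) had the smallest swings of all 72 genes and small added slopes, from -0.01 in S1 to 0.02 in L2 (adjusted p = 0.000907). In L2 its mean was 4300 ± 151 in generations 0 to 4 and 5000 ± 375 in generations 10 to 13, and in S1 it stood at 4190 ± 127 and 4030 ± 299. The call was lost in 15 of the 21 fits that left out a pool number, a population or a generation, with adjusted p up to 0.206.

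mRpS35 (FBgn0035374; 3L, 2780899 to 2782105, plus strand), a mitochondria-specific protein of the small subunit, was the gene called in males (adjusted p = 3.40e-05). Its mean went from 1110 ± 118 to 801 ± 129 in L2, from 950.0 ± 126 to 692 ± 80.0 in L1 and from 1100 ± 125 to 851 ± 158 in S2. In S1 it went from 1060 ± 106 to 1180 ± 138, and in C1 from 1150 ± 137 to 1310 ± 95.3. The C2 libraries lay at 943 to 1310 and at 807 to 1200. Early and late ranges overlapped in all 6 populations. The call was lost without C1 (adjusted p = 0.00216), without S1 (0.00387), without generation 0 (0.00254), without either pool number (0.304 and 0.00341) and with TMM factors (0.00222).

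Short and long sleepers were also set against each other. The mean short slope differed from the mean long slope in 1 of 72 genes in females, mRpS6, against 0.999% of 10107 genes tested. In males none was called, against 1.84% of 13825, and limma on 6 slopes called 0 of all genes tested. At an unadjusted p under 0.05 there were 9 genes in males, and the share of all genes there was not computed. mRpS6 (FBgn0035534; 3L, 4364550 to 4365243, plus strand), a small-subunit protein that pairs with an S18 protein in bacteria, differed by -0.04 ± 0.01 per generation on the log2 scale (edgeR standard error; adjusted p = 0.00072). Its mean went from 924 (742 to 1130 over 8 libraries) to 1130 (874 to 1300) in L1 and from 971 ± 109 to 1240 ± 89.8 in L2, and from 858 ± 43.8 to 809 ± 79.5 in S1 and from 887 ± 89.9 to 895 ± 148 in S2. It was 1010 ± 183 and 1040 ± 104 in C1, and 946 ± 76.0 and 1100 ± 90.2 in C2. In L2 alone the early and late ranges did not overlap, at 846 to 1130 and 1150 to 1370. The call was lost in 15 of 21 fits that left out a pool number, a population or a generation, with adjusted p from 0.00108 without C2 to 0.178 without the second pools.

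The strand setting of the counting is not given in the sources used here. On the other strand, 40 of the 70 genes with coordinates overlap another gene, among them mRpL39, mRpL1, mRpL51, mRpL34, mRpS24 and mRpL50, and in counts without strand both genes could not be told apart. mRpL13 and mRpS14 overlap CG10602 and CG32533 on their own strand.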

How the data were processed

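The 72 genes, the lists and the tests were chosen with earlier results of these data known. Whole flies were sequenced from poly-A RNA with a stranded kit. Per the submitters' processing notes, reads were made with CASAVA 1.8.2 and aligned with STAR, and the authors counted uniquely mapped reads per gene with HTSeq on the FlyBase annotation of that time; they deposited these raw counts without normalization. The deposited normalized counts are a signal, which the authors made by dividing each library's counts by its size factor (0.74 to 2.47, the median of ratios). The table leaves out 4266 of 17478 genes, which hold 1.05% of the counts, and 0 columns matched no sample.

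Normalized counts were computed here for all genes from the raw counts and these factors, and levels are log2 of the normalized count plus 1. Genes entered a test with a normalized count of at least 50 in a male or 100 in a female library. Tests were edgeR 4.0.16 quasi-likelihood F-tests in R 4.3.3 with the size factors, a dispersion trend from every 10th gene in the order of abundance, and Benjamini-Hochberg adjustment over all genes tested. Counts of the 2 pools were summed for sex and generation and kept apart for slopes. DESeq2 1.42.0, limma 3.58.1, other scalings and filters, and fits leaving out pools, populations, generations or libraries were alternatives. The edgeR fits for sex, generation, their interaction and the slopes were tested on simulated counts. The DESeq2 and limma fits and the descriptive measures were not.

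Named genes are the 5 largest and smallest sex differences, the 5 largest generation ranges and the 5 least like genes in each sex, genes called for slopes, the 3 highest and lowest per kb, and mRpS18A, mRpS18B and mRpS18C. Genes named as exceptions, for the interaction or under the replicate block were named after their values were seen. The generations printed for single genes were also picked after their values were seen. Populations without overlap between such generations are therefore a description and no test. Pool numbers follow the titles; they differ from another label in 35 libraries, and 29 carry a number of 3 or 4. Coordinates and exon lengths come from the BDGP6.54 gene models, which are newer than those used for counting, and 70 of the 72 identifiers are among them. All p-values rest on this single experiment. Those for sex, generation and their interaction measure the spread of the summed pools around population and generation effects. Those of the edgeR slope tests measure the scatter of libraries around the line of their population, and not the spread between populations.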

Additional observations from a re-analysis of the deposited data

Results flagged for a closer look

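In 7 of 72 genes the course over generations differed between the sexes by the edgeR test of the interaction itself. This is 9.72%, below the 14.4% of all 13896 genes tested. The adjusted p was 4.87e-05 for mRpL35, 7.16e-05 for mRpS21, 9.28e-05 for mRpL20, 9.47e-05 for mRpL41, 0.000687 for mRpL10, 0.000848 for mRpL18 and 0.000884 for mRpL27. The female minus male difference was largest at generation 13 in mRpL35 (1.02), mRpL18 (1.55) and mRpL10 (1.44) and at generation 0 in mRpS21 (0.69), mRpL20 (1.83), mRpL41 (0.77) and mRpL27 (1.02). Both ends of the series thus hold the largest differences of all 7, and leaving out generation 13 left 0 of them called. Leaving out either pool number also left 0 of them called.

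Single samples were checked with Dixon's gap-to-range ratio in 125 groups of 6 populations or 8 libraries whose values are printed, and 7 groups had a sample past the 95% limit, where chance gives about 1 group in 20. S1 stood low in mRpL50, at 2102 against 2728 to 3008 in females of generation 12 and at 510.5 against 571 to 605 in males of generation 7. L2 stood high in mRpS18C in females of generation 9, at 1058 against 835 to 904. The female minus male mean of the 72 genes at generation 0 was 1.64 in C1 against 1.06 to 1.25. In that population, the first female pool of generation 0 held 2629 normalized counts of mRpL14, against 1220 to 1422 in its other libraries of generations 0 to 4. The first C1 pool of generation 10 held 812 of mRpS6 in females, against 1001 to 1116 in generations 10 to 13. The second C2 pool of generation 2 held 1309 of mRpS35 in males, against 943 to 1106 in generations 0 to 4.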

How the results depend on the processing

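The counts of genes called for the sex difference and for generation stayed within 1.5 times under every alternative run. With no fold required, 1 gene, mRpL51, was higher in males, and TMM factors turned its difference to 0.30. With a fold of 2, 43 genes were higher in females. Leaving out a pool number, a population or a generation gave 0 to 9 genes for the interaction, 0 to 7 and 0 to 2 for the selection slopes of females and males, and 0 to 1 for short minus long in either sex. For the interaction the count was 12 without the libraries that stood apart, where 10.0% of all genes tested were called, and 15 with total counts, where 16.2% were. Both counts lie above that share, and the 7 of 72 reported lie below 14.4%. For the slopes of females it was 4 without those libraries, 0 with total counts, 1 with no low count filter, 27 with generation as a factor, 0 with summed pools, 5 with DESeq2 and 0 with limma on 6 slopes, where 39.8%, 1.22%, 12.8% and 0 of all genes were called. For the slopes of males it was 0 with TMM factors, 6 with generation as a factor, 0 with summed pools and 0 with limma, where 5.59%, 10.5%, 1.48% and 0 of all genes were. For short minus long in females it was 0 with total counts, 0 with no low count filter, 0 with summed pools and 0 with limma. The causes were not tested. Summed pools and limma on 6 slopes rest on fewer samples, and whether this bears on their counts was not tested either.

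With the replicate block (a slope per replicate number) 1 gene, mRpL40, was called for the slopes of females in place of mRpL14 and mRpS30. For the slopes of males and for short minus long in females it was 1, with mRpS35 and mRpS6 still called. With population and generation as a replicate block, the sex difference was called in 72 genes. A block for the generation swings could not be separated from generation and was not run. No label says what a population number shares across the schemes. Over genes, the first minus second population of 2 schemes had correlations with medians of 0.19 to 0.43 over 13 generations, positive in all 6 pairs of schemes, as a hint from the data and not the design. Single generations ranged from -0.34 to 0.84 in females and from -0.07 to 0.48 in males, and short against long males from 0.12 to 0.42. One further alternative, without the 4 libraries that stood apart and without the first C1 female pool of generation 0, was chosen after seeing the data and gave 69 genes for the swings of females and 6 for the interaction.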
